A study of Homo sapiens with 12 samples.

Results

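The kinetochore and spindle checkpoint genes described here are 41 listed genes of the human centromere, kinetochore and checkpoint, other than CENPU and its closest partners. They were chosen by name and role, with earlier results of these data known, and their symbols were matched to Ensembl identifiers. Of the 41, 40 were matched to the 60664 identifiers of the expression table, and 1 listed gene was not analysed here. RNA was sequenced from 12 samples of 2 human hepatoma lines in culture, in 4 groups of 3. The groups were MHCC-97H with si-CENPU, MHCC-97H with si-NC, Huh-7 with si-CENPU and Huh-7 with si-NC. Here si-CENPU is a small interfering RNA against CENPU, an inner kinetochore subunit, and si-NC is the control small interfering RNA. Both lines were labelled as wild type, and no time after transfection was given. Whether replicates were separate cultures is not stated in the labels, so p-values here measure a spread that may be technical only. RNA of a whole culture cannot separate fewer dividing cells from less RNA per cell.

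The kinetochore is the protein assembly that fastens each chromosome to spindle microtubules in mitosis. Its inner layer, the constitutive centromere-associated network, sits on chromatin that holds the histone H3 variant CENP-A, which is placed by HJURP and the Mis18 proteins. The outer layer is the KMN network, made of KNL1, the Mis12 complex and the Ndc80 complex, which grips microtubules with help from the Ska complex. Kinetochores without microtubules recruit MPS1, the BUB and MAD proteins and the ROD-ZW10-Zwilch complex, and so hold back anaphase. Many of these genes are transcribed mainly in late cell cycle phases through promoters with CHR, CCAAT and E2F elements, so their levels follow the dividing share of a culture.

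Values are TPM (a transcript's share of the library, scaled to a fixed total), which allow for transcript length and library total but keep no sequencing depth. Between 18639 and 20900 genes per library lay above 0. The labelled cell type was checked with 9 hepatocyte markers, all of which reached 1 TPM in Huh-7 and none of which did in MHCC-97H. Their summed level was 0.59 to 1.27 TPM in MHCC-97H si-CENPU, 0.37 to 0.48 TPM in MHCC-97H si-NC, 6660 to 7570 TPM in Huh-7 si-CENPU and 7100 to 7580 TPM in Huh-7 si-NC. APOB was at 0 in all 6 MHCC-97H libraries. CENPU itself was listed at 0.22, 0.45 and 0.24 TPM in MHCC-97H si-CENPU and at 1.17, 0.83 and 0.89 TPM in MHCC-97H si-NC. In Huh-7 it was listed at 0.17, 0.11 and 0.45 TPM with si-CENPU and at 0.56, 0.84 and 0.53 TPM with si-NC. In each line every si-CENPU value was below every si-NC value, and the exact two-sided permutation p was 0.1 in each, the smallest that 3 against 3 samples allow. Differences below are on the scale log2(TPM + 1), which understates changes of low genes. A gene was called at a limma Benjamini-Hochberg adjusted p below 0.05 over 11088 genes with a mean of at least 1 TPM over the 12 libraries. Of the 40 members, 32 passed that limit, and CENPC, CENPI, CENPL, KNL1, ZW10, ZWILCH, TTK and CENPE did not. CENPU, the targeted gene, averaged 0.538 TPM over the 12 libraries and did not pass it either, so its check rests on low values. Of the 32, 13 averaged under 1 TPM in Huh-7 and passed through MHCC-97H alone.

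The levels of these genes differed mainly between the lines. Of the 40 members, 2 averaged under 0.5 TPM over the 6 MHCC-97H libraries and 17 did so over the 6 Huh-7 libraries. Of the 11088 tested genes, which include 32 of the 40 members, 887 and 908 did so. These sets are not alike, since the 17 members include every member that did not pass the expression limit. Both of the 2 members in MHCC-97H, CENPC and CENPE, had not passed it either. Knockdown of CENPU was followed by no called change of any member in either line. MIS12 and CENPW, subunits of the Mis12 complex and the CENP-T-W-S-X complex, were listed at over 100 TPM in most Huh-7 libraries and at 0 in single ones.

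**Figure D1:**
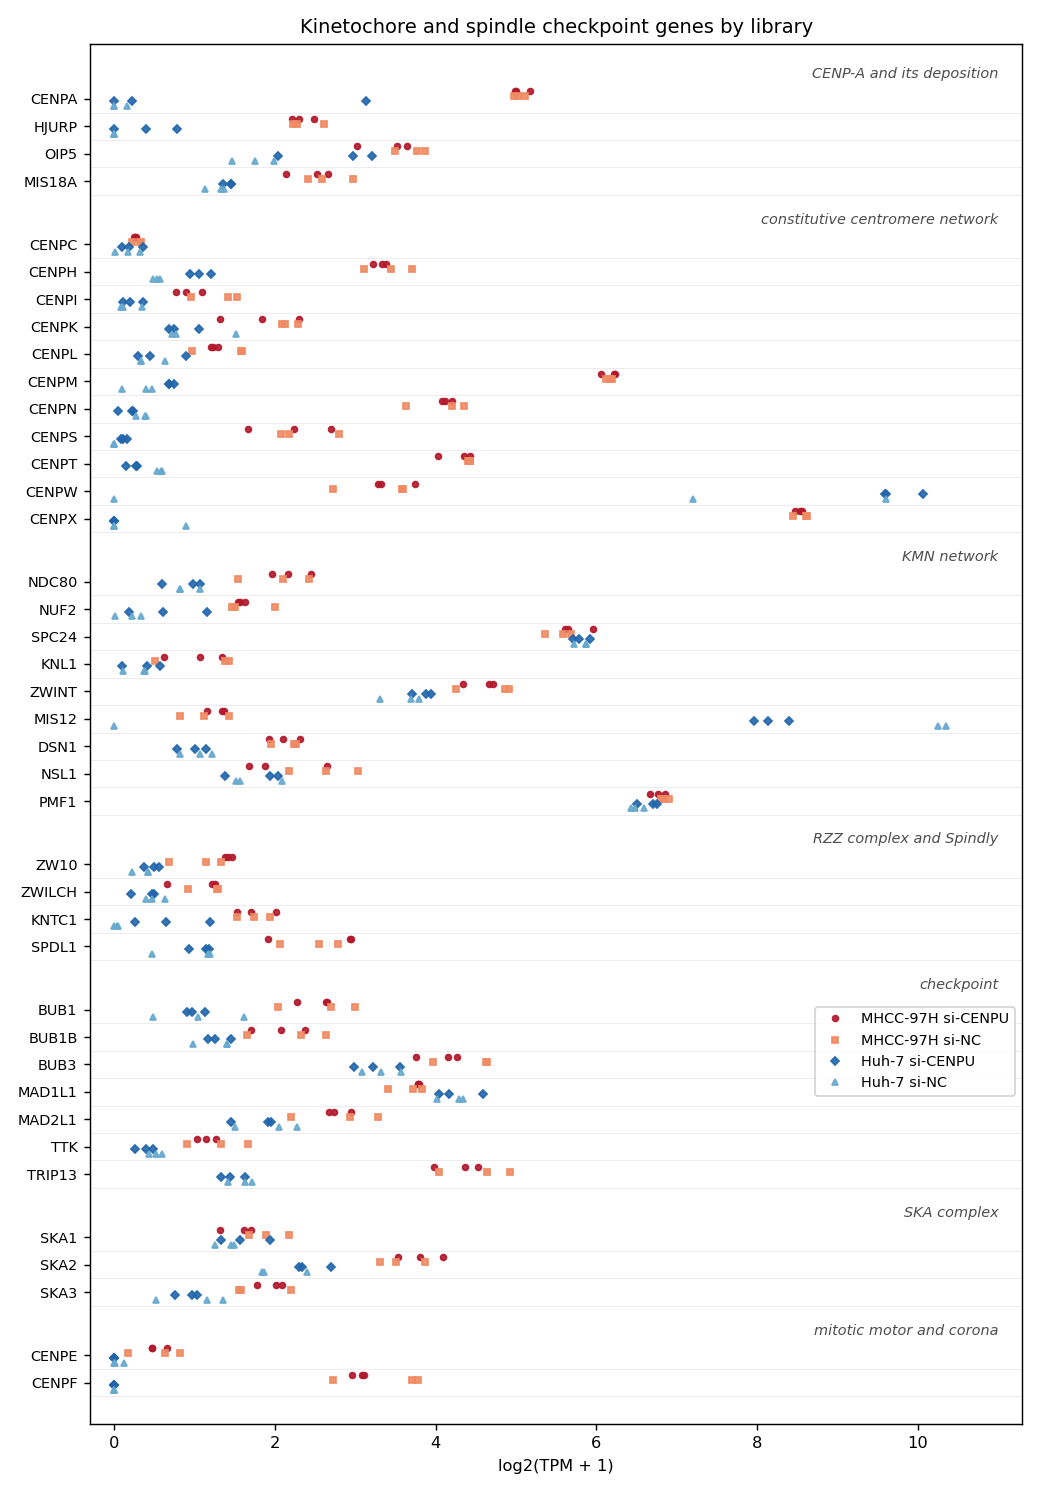
Level of each of the 40 matched genes, as log2(TPM + 1), in every library, grouped by role. Each point is 1 library, with MHCC-97H si-CENPU as dark red circles, MHCC-97H si-NC as orange squares, Huh-7 si-CENPU as dark blue diamonds and Huh-7 si-NC as light blue triangles. Most genes lie further right in MHCC-97H, while CENPW and MIS12 reach far higher values in Huh-7.

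The CENP-A group showed the split between the lines. CENPA, the centromeric histone itself, was listed at 31.05, 35.04 and 30.79 TPM in MHCC-97H si-CENPU and at 33.69, 31.53 and 30.54 TPM in MHCC-97H si-NC. In Huh-7 it was listed at 0.17, 7.75 and 0 TPM with si-CENPU and at 0, 0 and 0.12 TPM with si-NC. All MHCC-97H libraries lay above all Huh-7 libraries, and 1 Huh-7 si-CENPU library stood apart at 7.75 TPM. HJURP, the CENP-A chaperone, was listed at 4.59, 3.9 and 3.63 TPM in MHCC-97H si-CENPU and 5.09, 3.82 and 3.69 TPM in MHCC-97H si-NC. In Huh-7 it was listed at 0, 0.32 and 0.72 TPM with si-CENPU and at 0 in all 3 si-NC libraries. OIP5, the Mis18-beta subunit of the licensing complex, was the highest member of this role in Huh-7. It stood at 10.44, 11.53 and 7.13 TPM in MHCC-97H si-CENPU, 13.56, 12.67 and 10.28 TPM in MHCC-97H si-NC, 3.1, 8.26 and 6.86 TPM in Huh-7 si-CENPU, and 1.77, 2.37 and 2.98 TPM in Huh-7 si-NC. The Huh-7 si-CENPU libraries overlapped the MHCC-97H si-CENPU libraries, while the si-NC libraries of the lines were apart. MIS18A, the other Mis18 subunit, ranged from 3.39 to 6.82 TPM in MHCC-97H and from 1.19 to 1.73 TPM in Huh-7.

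Of the 8 members of the inner network that reached 3 TPM on average in MHCC-97H, 5 averaged under 0.5 TPM in Huh-7. The 5 include CENPS, whose sum with an overlapping read-through gene, given below, overlapped between the lines. CENPM, of the CENP-H-I-K-M complex, was listed at 65.44, 73.61 and 74.09 TPM in MHCC-97H si-CENPU and 68.58, 70.87 and 72.23 TPM in MHCC-97H si-NC. Huh-7 libraries had 0.6, 0.67 and 0.61 TPM with si-CENPU and 0.07, 0.32 and 0.38 TPM with si-NC. The lines did not overlap, and neither did the groups of Huh-7. CENPH, of the same complex, was at 9.07, 9.43 and 8.33 TPM in MHCC-97H si-CENPU, 12.03, 9.89 and 7.65 TPM in MHCC-97H si-NC, 1.07, 1.3 and 0.92 TPM in Huh-7 si-CENPU, and 0.48, 0.44 and 0.4 TPM in Huh-7 si-NC. CENPK averaged 2.67 TPM in MHCC-97H si-CENPU, 3.49 TPM in MHCC-97H si-NC, 0.78 TPM in Huh-7 si-CENPU and 1.06 TPM in Huh-7 si-NC. The lines overlapped for CENPK, since MHCC-97H si-CENPU replicate 3 was at 1.48 TPM and Huh-7 si-NC replicate 2 at 1.85 TPM. CENPI, the remaining subunit of the complex, stayed at or under 1.87 TPM in every library.

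CENPN, which reads the CENP-A nucleosome, was listed at 17.36, 16.29 and 15.94 TPM in MHCC-97H si-CENPU and 19.5, 17.38 and 11.34 TPM in MHCC-97H si-NC. In Huh-7 it was at 0.03, 0.18 and 0.17 TPM with si-CENPU and 0.31, 0.21 and 0.3 TPM with si-NC. Its partner CENPL averaged 1.37 TPM in MHCC-97H si-CENPU, 1.65 TPM in MHCC-97H si-NC, 0.483 TPM in Huh-7 si-CENPU and 0.357 TPM in Huh-7 si-NC. CENPC, the long scaffold between inner and outer layers, was the lowest member of the network in MHCC-97H, at 0.17 to 0.26 TPM, and ranged from 0.01 to 0.28 TPM in Huh-7. Its values overlapped between all 4 groups.

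The CENP-T-W-S-X complex, a histone-fold assembly that recruits the Ndc80 complex, had subunits at very different TPM in 1 and the same line. CENPT was listed at 19.42, 20.46 and 15.27 TPM in MHCC-97H si-CENPU and 20.1, 20.5 and 20.5 TPM in MHCC-97H si-NC, but at 0.21, 0.22 and 0.11 TPM in Huh-7 si-CENPU and 0.44, 0.51 and 0.5 TPM in Huh-7 si-NC. CENPX was the most abundant member in MHCC-97H, at 369.82, 352.23 and 376.82 TPM with si-CENPU and 348.01, 387.82 and 390.92 TPM with si-NC. In Huh-7, CENPX was listed at 0 in all 3 si-CENPU libraries and at 0, 0.86 and 0 TPM with si-NC. An exact 0 in a table without counts can be a failed estimate, so CENPX is only said to be listed at 0.

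CENPS (chromosome 1, 10430443 to 10442809, plus strand, GRCh38, GENCODE release 29), the other small histone-fold subunit, overlaps a read-through gene. It was at 3.7, 5.5 and 2.17 TPM in MHCC-97H si-CENPU, 3.53, 5.92 and 3.23 TPM in MHCC-97H si-NC, 0.08, 0.12 and 0.06 TPM in Huh-7 si-CENPU, and at 0 in the 3 Huh-7 si-NC libraries. The read-through gene CENPS-CORT, on the same strand (10430102 to 10452153), was higher in Huh-7. It was at 1.18, 1.3 and 1.64 TPM in MHCC-97H si-CENPU, 3.62, 2.69 and 0.86 TPM in MHCC-97H si-NC, 7.54, 5.63 and 8.23 TPM in Huh-7 si-CENPU, and 7.93, 8.45 and 6.24 TPM in Huh-7 si-NC. The sum of both averaged 5.16 ± 1.52 TPM in MHCC-97H si-CENPU, 6.62 ± 2.31 TPM in MHCC-97H si-NC, 7.22 ± 1.32 TPM in Huh-7 si-CENPU and 7.54 ± 1.16 TPM in Huh-7 si-NC (SD, n = 3 each). The sums overlapped between the lines, so the gap between the lines at CENPS was not seen in the sums. PMF1, which also has a read-through gene, PMF1-BGLAP, kept its pattern when both were added, at 117 ± 8.17, 122 ± 4.18, 106 ± 9.41 and 95.4 ± 4.71 TPM in the same 4 groups (SD, n = 3 each).

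CENPW (chromosome 6, 126340174 to 126348875, plus strand), the histone-fold partner of CENPT, had its highest values in Huh-7, where CENPT and CENPX were near 0. It was listed at 8.95, 12.34 and 8.76 TPM in MHCC-97H si-CENPU and 10.99, 11.11 and 5.58 TPM in MHCC-97H si-NC. In Huh-7 it was at 767.94, 778.95 and 1067.93 TPM with si-CENPU and at 0, 774.17 and 146.03 TPM with si-NC. The Huh-7 si-NC libraries spanned the whole scale, from a listed 0 to a level inside the si-CENPU range. MIS12 (chromosome 17, 5486285 to 5490814, plus strand), the name-giving subunit of the Mis12 complex, had the same kind of break in another library. It was at 1.23, 1.57 and 1.54 TPM in MHCC-97H si-CENPU, 1.69, 1.16 and 0.77 TPM in MHCC-97H si-NC, 247.6, 278.94 and 336.82 TPM in Huh-7 si-CENPU, and 1306.21, 1214.21 and 0 TPM in Huh-7 si-NC. Of the 886 genes that reached 100 TPM in a Huh-7 si-NC library, 11 were at 0 in another library of that group. Only 4 of those 11 were protein-coding, and CENPW and MIS12 were among these 4.

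**Figure D2:**
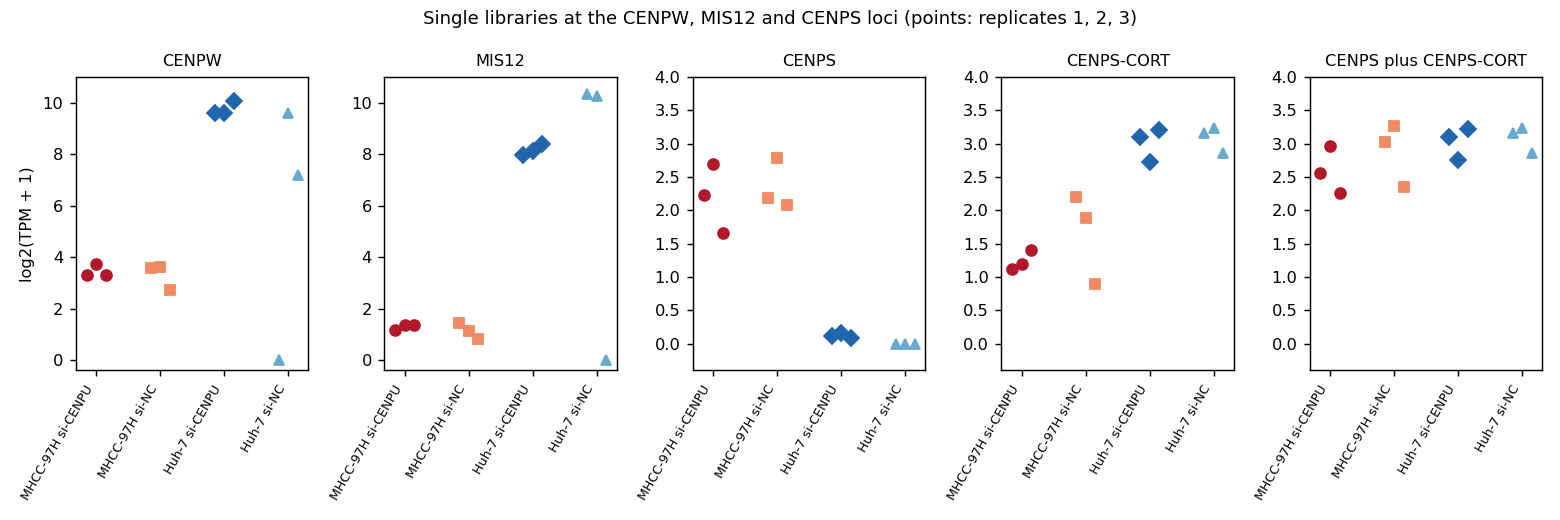
Levels, as log2(TPM + 1), of CENPW, MIS12, CENPS, its read-through gene CENPS-CORT and the sum of the last pair, in the 4 groups. Points are replicates 1, 2 and 3 from left to right within a group. Single Huh-7 si-NC libraries are at 0 for CENPW and MIS12, and the sum at the CENPS locus overlaps between the lines. The CENPW and MIS12 panels have a longer vertical axis than the others.

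In the outer layer, SPC24, a subunit of the Ndc80 complex, was listed at 47.96, 61.28 and 49.21 TPM in MHCC-97H si-CENPU and 40.22, 47.11 and 50.23 TPM in MHCC-97H si-NC. Its Huh-7 values were 59.59, 54.19 and 51.42 TPM with si-CENPU and 57.39, 51.85 and 57.52 TPM with si-NC. NDC80 and NUF2, which carry the microtubule-binding end of the same complex, were lower: NDC80 averaged 3.62, 3.18, 0.863 and 0.88 TPM, and NUF2 1.99, 2.19, 0.627 and 0.147 TPM, in MHCC-97H si-CENPU, MHCC-97H si-NC, Huh-7 si-CENPU and Huh-7 si-NC. PMF1, of the Mis12 complex, was at 114.82, 107.56 and 100.26 TPM in MHCC-97H si-CENPU, 110.3, 118.49 and 113.18 TPM in MHCC-97H si-NC, 90.04, 107.23 and 102.79 TPM in Huh-7 si-CENPU, and 88.02, 85.39 and 95.07 TPM in Huh-7 si-NC. SPC24 and PMF1 were thus at 40.22 TPM or more in all 12 libraries. DSN1, also of the Mis12 complex, ranged from 2.8 to 3.98 TPM in MHCC-97H and from 0.72 to 1.33 TPM in Huh-7. NSL1, the remaining Mis12 subunit, ranged from 2.19 to 7.2 TPM in MHCC-97H and from 1.61 to 3.26 TPM in Huh-7, so the lines overlapped. ZWINT, which binds KNL1, averaged 23 TPM in MHCC-97H si-CENPU, 25.1 TPM in MHCC-97H si-NC, 13.4 TPM in Huh-7 si-CENPU and 11.2 TPM in Huh-7 si-NC. KNL1 itself, the platform for BUB proteins, had the lowest mean of the KMN network over the 12 libraries, at 0.42 to 1.68 TPM in MHCC-97H and 0.07 to 0.48 TPM in Huh-7.

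Of the proteins that bring dynein and checkpoint factors to the outer kinetochore, SPDL1 (Spindly) was the highest, at 2.75 to 6.72 TPM in MHCC-97H and 0.38 to 1.28 TPM in Huh-7. ZWILCH was at 0.58 to 1.45 TPM in MHCC-97H and 0.16 to 0.55 TPM in Huh-7. KNTC1, the ROD subunit, was at 3.04, 2.24 and 1.88 TPM in MHCC-97H si-CENPU, 2.82, 2.34 and 1.89 TPM in MHCC-97H si-NC, 0.56, 1.29 and 0.2 TPM in Huh-7 si-CENPU, and 0, 0.03 and 0.02 TPM in Huh-7 si-NC. Both Huh-7 groups lay below both MHCC-97H groups, and the Huh-7 si-CENPU libraries were all above those with si-NC.

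Checkpoint genes were measured in both lines. MAD1L1, which anchors MAD2 at kinetochores, was at 12.8, 12.73 and 12.68 TPM in MHCC-97H si-CENPU, 12.13, 13.19 and 9.58 TPM in MHCC-97H si-NC, 23.15, 16.9 and 15.43 TPM in Huh-7 si-CENPU, and 19.28, 15.15 and 18.52 TPM in Huh-7 si-NC. It was, beside MIS12, the other member called lower in MHCC-97H. TRIP13, the ATPase that remodels MAD2 and takes the checkpoint complex apart, had a wide gap in the opposite direction. It was at 19.59, 21.95 and 14.73 TPM in MHCC-97H si-CENPU, 29.33, 23.95 and 15.41 TPM in MHCC-97H si-NC, 1.5, 1.72 and 2.09 TPM in Huh-7 si-CENPU, and 1.66, 2.29 and 2.08 TPM in Huh-7 si-NC. BUB3, the adaptor of both BUB kinases, averaged 15.9, 20.8, 8.67 and 9.1 TPM in the same order of groups. BUB1, BUB1B and MAD2L1 ranged from 2.15 to 8.69 TPM in MHCC-97H and from 0.4 to 3.82 TPM in Huh-7. TTK, the MPS1 kinase that starts checkpoint signalling, was lowest at 0.88 to 2.16 TPM in MHCC-97H and 0.2 to 0.51 TPM in Huh-7.

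The Ska complex and the corona proteins completed the list. SKA2 averaged 13.1 TPM in MHCC-97H si-CENPU, 10.9 TPM in MHCC-97H si-NC, 4.49 TPM in Huh-7 si-CENPU and 3.16 TPM in Huh-7 si-NC, while SKA1 and SKA3 ranged from 1.49 to 3.59 TPM in MHCC-97H and from 0.43 to 2.82 TPM in Huh-7. CENPF, a corona protein and a usual marker of late cell cycle phases, was at 7.65, 6.75 and 7.47 TPM in MHCC-97H si-CENPU and 12.73, 12.07 and 5.62 TPM in MHCC-97H si-NC. It was listed at 0 in all 6 Huh-7 libraries. CENPE, the kinetochore kinesin, was at 0.39, 0.57 and 0.38 TPM in MHCC-97H si-CENPU, 0.77, 0.55 and 0.13 TPM in MHCC-97H si-NC, 0 in all Huh-7 si-CENPU libraries, and 0.09, 0.01 and 0 TPM in Huh-7 si-NC.

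The difference between the lines was tested in the si-NC samples. Among the 32 tested members, limma called 28 higher and 2 lower in MHCC-97H, where 50.1% and 22.9% of all 11088 tested genes were called in those directions. Since 13 of the 32 passed the expression limit through MHCC-97H alone and so had to differ, these counts describe the listing and support nothing further. With a limit of 1 TPM in each line, chosen after seeing the data, 15 of 19 members were called higher and 2 lower, beside 47.8% and 17.8% of 8005 genes. CENPA was among the 19 only through 1 Huh-7 si-CENPU library at 7.75 TPM, its other Huh-7 libraries being at 0.17 TPM or less. The median difference was 1.08 over those 19 members and 0.45 over the 8005 genes. The si-NC groups did not overlap for 27 members higher and 2 lower, where 49.6% and 23.4% of all tested genes were so. The 27 include all 13 that passed the expression limit through MHCC-97H alone, so this count too describes the listing.

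Among members that averaged at least 1 TPM in each line, TRIP13 differed by 2.95 (SE 0.218, limma adjusted p = 2.42e-07), OIP5 by 1.97 (SE 0.283, adjusted p = 7.22e-05), BUB3 by 1.09 (SE 0.224, adjusted p = 0.00103) and ZWINT by 1.08 (SE 0.19, adjusted p = 0.000345). For members that passed the expression limit through MHCC-97H alone, the difference is a description without a test. It was 5.84 for CENPM (SE 0.112), 3.85 for CENPT (SE 0.12), 3.71 for CENPN (SE 0.17) and 2.89 for CENPH (SE 0.15). No difference is given for HJURP, CENPS and CENPF, listed at 0 in every Huh-7 si-NC library, nor for CENPX and CENPA, listed at 0 in 2 of the 3. At the other end were MAD1L1 at -0.57 (SE 0.16, adjusted p = 0.00754) and SPC24 at -0.28 (SE 0.117, adjusted p = 0.0511, not called), both limma. MIS12 was called at -5.75 (SE 2.08, limma adjusted p = 0.0268), although its si-NC groups overlapped through the listed 0. Over 24 alternatives its adjusted p ran from 2.68e-11 to 0.114. CENPW was not called at -2.3 (SE 1.76, limma adjusted p = 0.256), and was called at -5.1 without Huh-7 si-NC replicate 1 (adjusted p from 1.54e-05 to 0.867 over 24 alternatives).

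The size of these differences depended on the scaling. The median of all tested genes was 0.49 as deposited, -0.04 after trimmed-mean scaling and 0.13 after quantile normalization, and the calls over all genes were 5557 higher and 2542 lower as deposited, against 3560 and 4017 after trimmed-mean scaling. Relative to the deposited median, 27 of the 32 members lay above it. Among them were all 13 that passed the expression limit through MHCC-97H alone, so this count describes the listing. After each of the 2 scalings 23 members were called higher and 3 lower, and all 23 had been called higher before. Beside them stood 3560 higher and 4017 lower of 11003 tested genes after trimmed-mean scaling. After quantile normalization it was 4340 higher and 3522 lower of 11088 tested genes. The 23 members include all of the 13 named above except SKA3, so this count also describes the listing. MAD2L1, NSL1, PMF1, SKA1 and SKA3 lost their calls under both scalings, PMF1 changing sign to -0.3 after trimmed-mean scaling. SPC24 was called lower in MHCC-97H under both, at -0.92 and -0.57 (limma adjusted p = 0.0014 and 0.00241, range over 24 alternatives 0.0014 to 0.194).

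**Figure D3:**
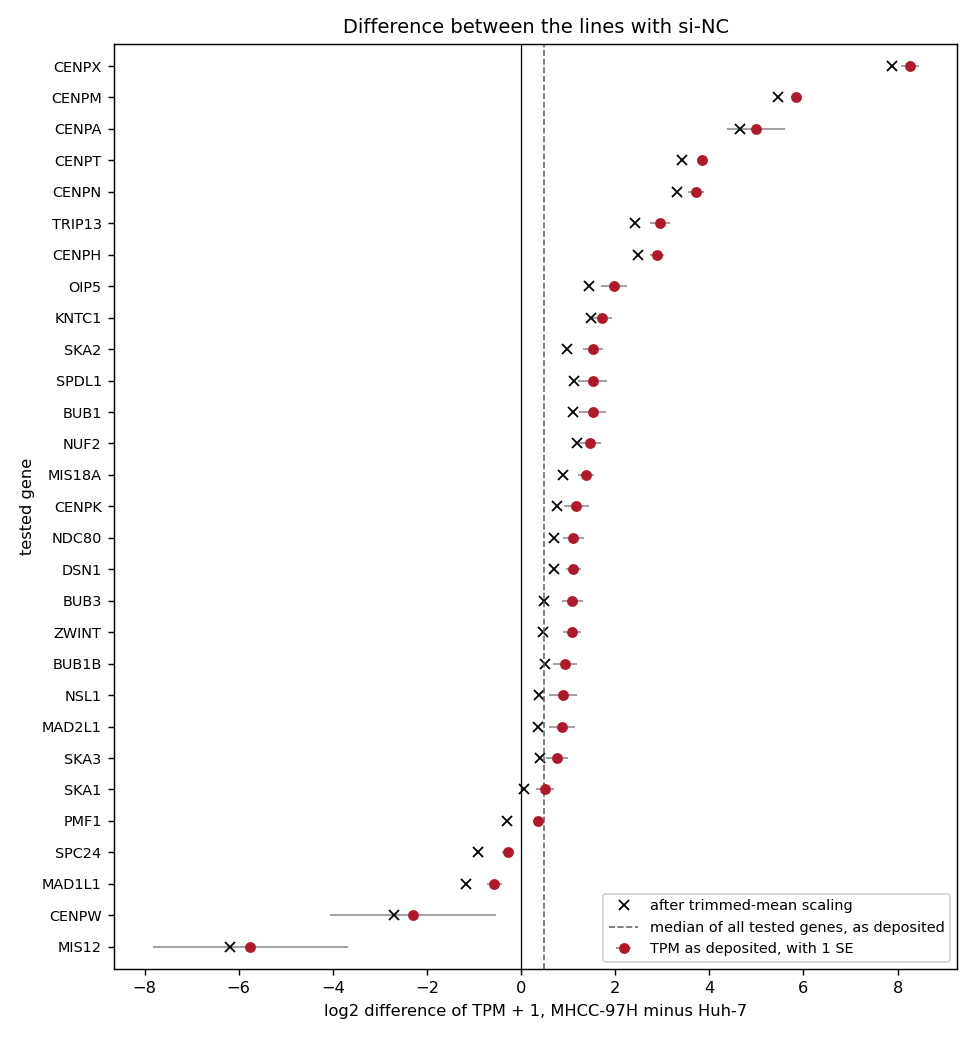
Difference of log2(TPM + 1) between MHCC-97H si-NC and Huh-7 si-NC for 29 tested genes, sorted by size, as deposited (red circles with 1 SE) and after trimmed-mean scaling (black crosses). HJURP, CENPS and CENPF, listed at 0 in all Huh-7 si-NC libraries, are not drawn, while CENPX and CENPA, at 0 in 2 of those 3 libraries, are drawn as listed. The dashed line is the median of all tested genes, 0.49, and 27 of the 32 tested members lie above it. These include the 13 that passed the expression limit through MHCC-97H alone.

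Some members well above 0 in MHCC-97H were listed near 0 in Huh-7. Of 27 members that averaged at least 3 TPM over the 6 MHCC-97H libraries, 7 (25.9%) averaged under 0.5 TPM over the 6 Huh-7 libraries, beside 565 (7.83%) of 7218 tested genes. They were HJURP, CENPM, CENPN, CENPS, CENPT, CENPX and CENPF. For CENPS, the sum with its read-through gene CENPS-CORT overlapped between the lines, as given above. No member did the reverse, as 602 of all 11088 tested genes did, but few members could. Only OIP5, CENPW, SPC24, ZWINT, MIS12, PMF1, BUB3, MAD1L1 and SKA2 averaged at least 3 TPM in Huh-7. Genes that every dividing cell uses were also among those listed near 0 in Huh-7. The replication clamp PCNA was at 39.74, 39.19 and 32.5 TPM in MHCC-97H si-CENPU, 44.92, 42.06 and 27.09 TPM in MHCC-97H si-NC, 0.1, 0.22 and 0.23 TPM in Huh-7 si-CENPU, and 0.01, 0.07 and 0.09 TPM in Huh-7 si-NC. PLK1, CDK1 and MCM2 were likewise at 11.31 TPM or more in every MHCC-97H library and at 0.69 TPM or less in every Huh-7 library. Some other mitotic genes were high in both lines, but not all genes of their groups. AURKB, the kinase of the passenger complex, ranged from 111.5 to 134.32 TPM in MHCC-97H and from 72.4 to 97.6 TPM in Huh-7. In the same complex, BIRC5 averaged 38.4 TPM in MHCC-97H and 0.66 TPM in Huh-7, and INCENP averaged 6.73 and 2.9 TPM. CDC20, the target of the checkpoint, ranged from 131.91 to 160.42 TPM in MHCC-97H and from 75.05 to 100.38 TPM in Huh-7.

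The promoters of genes near 0 in Huh-7 and of genes at similar levels in both lines are shown for comparison. Each stretch runs 5′ to 3′ on the gene's strand from 250 bases before to 50 bases after the RefSeq transcript start (GRCh38.p14). Capitals mark the letters of the CHR (TTTGAA), the CCAAT box (CCAAT) and E2F elements (TTTCCCGC or TTTGGCGC), each searched on both strands. No marked letters were shared between motifs in these promoters. CENPF, HJURP, CENPN and CENPX are 4 of the 6 near-zero genes with a promoter, and the other 2, CENPS and CENPT, held neither a CHR nor a CCAAT box. The genes SPC24 and PMF1 were at 40.22 TPM or more in every library.
CENPF (chr1:214602945-214603244, plus strand): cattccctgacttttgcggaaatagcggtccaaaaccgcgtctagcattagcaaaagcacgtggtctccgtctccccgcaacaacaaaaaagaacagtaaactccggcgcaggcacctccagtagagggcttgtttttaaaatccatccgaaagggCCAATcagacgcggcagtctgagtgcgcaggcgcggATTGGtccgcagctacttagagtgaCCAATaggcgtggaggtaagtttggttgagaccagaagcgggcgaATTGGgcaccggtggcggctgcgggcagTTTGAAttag
HJURP (chr2:233854486-233854785, minus strand): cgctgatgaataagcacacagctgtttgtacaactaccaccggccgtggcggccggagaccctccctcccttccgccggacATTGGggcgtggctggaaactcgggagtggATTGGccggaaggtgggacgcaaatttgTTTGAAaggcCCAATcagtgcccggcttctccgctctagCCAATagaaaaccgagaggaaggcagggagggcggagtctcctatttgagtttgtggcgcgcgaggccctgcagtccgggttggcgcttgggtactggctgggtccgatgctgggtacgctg
CENPN (chr16:81006964-81007263, plus strand): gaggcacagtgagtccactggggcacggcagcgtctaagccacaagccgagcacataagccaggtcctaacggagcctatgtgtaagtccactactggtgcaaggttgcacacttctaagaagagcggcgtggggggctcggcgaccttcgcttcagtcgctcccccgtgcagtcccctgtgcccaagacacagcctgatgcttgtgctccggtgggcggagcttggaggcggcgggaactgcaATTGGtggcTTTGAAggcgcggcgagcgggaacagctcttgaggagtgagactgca
CENPX (chr17:82022829-82023128, minus strand): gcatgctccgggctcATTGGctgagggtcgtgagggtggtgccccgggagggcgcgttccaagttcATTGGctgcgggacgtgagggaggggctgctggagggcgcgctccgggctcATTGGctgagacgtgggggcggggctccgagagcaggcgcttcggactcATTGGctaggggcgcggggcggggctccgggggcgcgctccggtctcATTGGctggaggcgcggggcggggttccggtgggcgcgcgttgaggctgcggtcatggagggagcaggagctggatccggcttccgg
SPC24 (chr19:11155733-11156032, minus strand): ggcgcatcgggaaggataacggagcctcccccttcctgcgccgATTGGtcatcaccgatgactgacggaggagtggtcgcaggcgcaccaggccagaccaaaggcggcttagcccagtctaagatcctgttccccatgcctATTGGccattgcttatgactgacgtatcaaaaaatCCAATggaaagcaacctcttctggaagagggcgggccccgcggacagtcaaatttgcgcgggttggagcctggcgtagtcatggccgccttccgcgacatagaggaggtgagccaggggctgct
PMF1 (chr1:156212757-156213056, plus strand): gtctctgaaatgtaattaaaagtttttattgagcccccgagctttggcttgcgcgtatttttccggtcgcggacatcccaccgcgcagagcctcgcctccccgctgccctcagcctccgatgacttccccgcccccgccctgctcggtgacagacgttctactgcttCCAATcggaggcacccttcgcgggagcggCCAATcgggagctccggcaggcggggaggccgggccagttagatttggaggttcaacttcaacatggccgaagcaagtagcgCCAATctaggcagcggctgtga

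CENPF, HJURP and CENPN each held 1 CHR and at least 1 CCAAT box, while CENPX held 5 CCAAT boxes and SPC24 and PMF1 held 3 each, all 3 without a CHR. RefSeq promoters were matched for 32 of the 40 members, whether or not they passed the expression limit. A CHR was found in 14 of the 32 (43.8%), beside 15.4% of all 27305 promoters and 8.59% of 8082 promoters of tested genes. A CCAAT box was found in 19 (59.4%), beside 35.7% and 37.2%, and an E2F element in 4 (12.5%), beside 2.31% and 4.05%. Among the 6 near-zero genes with a promoter, 3 (50%) held a CHR, beside 11 of the 26 others (42.3%), and 4 (66.7%) held a CCAAT box, beside 15 of the others (57.7%). A match of letters is a description of this window and not evidence that a factor binds there.

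After si-CENPU in MHCC-97H, limma called 0 of the 32 members, beside 0.00902% of all tested genes, which is 1 gene. No member had an unadjusted p below 0.05, beside 3.42% of all tested genes, and no tested member's groups were apart, beside 3.19% higher and 3.76% lower. The median change was -0.05 over the members and -0.05 over all tested genes, and 12 members (beside 34.9% of all tested genes) had a positive change. The smallest p among members belonged to SKA1, a microtubule-binding Ska subunit, with 2.24, 2.06 and 1.49 TPM in MHCC-97H si-CENPU and 3.51, 2.7 and 2.2 TPM in MHCC-97H si-NC (log2 change -0.37, SE 0.188, limma adjusted p = 1.0). NSL1 had 2.19, 5.25 and 2.67 TPM with si-CENPU and 7.2, 5.23 and 3.53 TPM with si-NC (log2 change -0.55, SE 0.301, adjusted p = 1.0). For both, 1 si-CENPU library lay inside the si-NC range. SPC24 changed by 0.2 (SE 0.117), BUB3 by -0.35 (SE 0.224), CENPF by -0.36 (SE 0.23) and CENPK by -0.34 (SE 0.266), all with limma adjusted p = 1.0 and overlapping groups. Among the 8 untested members, ZW10, the RZZ scaffold, was at 1.66, 1.77 and 1.61 TPM with si-CENPU and 1.52, 1.21 and 0.61 TPM with si-NC. Its groups did not overlap, and in the fit without the expression limit its change was 0.37 (SE 0.162, limma adjusted p = 1.0). CENPI was at 0.7, 0.86 and 1.13 TPM with si-CENPU and 1.87, 1.66 and 0.93 TPM with si-NC, with overlapping groups and a change of -0.38 (SE 0.167, adjusted p = 1.0) in the same limma fit.

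Single libraries of MHCC-97H deviated over many members at once. The si-NC replicate 3 had the lowest value of its group for 25 of the 32 members, beside 59.8% of all tested genes, and its median deviation from its group was -0.37 over the members and -0.21 over all tested genes. In MHCC-97H si-CENPU, replicate 3 was likewise lowest for 25 members, beside 63.9% of tested genes. Deviations of libraries also moved with transcript GC content, and the members are poorer in GC (median 43% over 32 members) than all tested genes (51.7%). Across the 32 members, Spearman's rho of the deviation with GC content was 0.414 for MHCC-97H si-NC replicate 3 and -0.586 for Huh-7 si-NC replicate 2, a description over genes that share a library. The part of GC content in the results was not tested beyond a corrected fit, in which 0 members were called after si-CENPU in each line. Without MHCC-97H si-NC replicate 3, 5 members had an unadjusted p below 0.05 and 0 were called, beside 791 of 11090 tested genes at that p (379 of 11088 with all libraries), and the median change was -0.15 over the members and -0.11 over all tested genes. These 5 were CENPF, at -0.69 (SE 0.118, limma adjusted p = 0.164), and BUB3, TRIP13, NSL1 and SKA1, with adjusted p = 0.683 each.

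**Figure D4:**
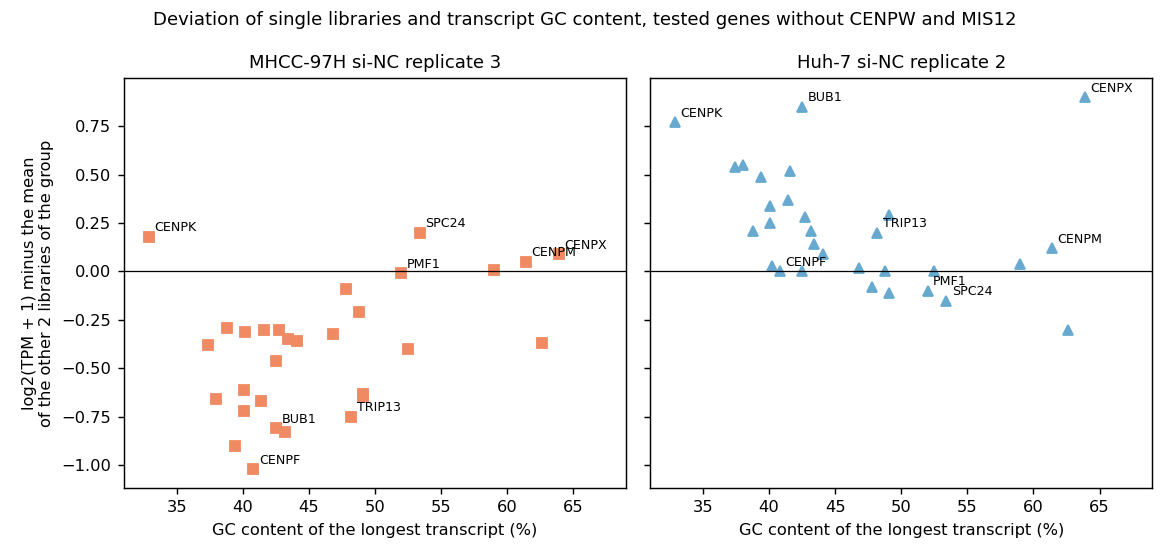
Deviation of MHCC-97H si-NC replicate 3 and of Huh-7 si-NC replicate 2 from the mean of the other 2 libraries of their group, in log2(TPM + 1), against the GC content of each gene's longest transcript, in percent. Each point is a tested gene, without CENPW and MIS12. CENPF is lowest in MHCC-97H si-NC replicate 3 at -1.02, while CENPX and SPC24, richer in GC, lie slightly above 0. Against that order, CENPK, the poorest in GC, lies at 0.18, and MAD1L1, at 62.6% GC, lies at -0.37.

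After si-CENPU in Huh-7, limma again called 0 of the 32 members, beside 0.00902% of all tested genes, or 1 gene. At an unadjusted p below 0.05 there were 5 members higher and 1 lower, beside 2.55% and 2.02% of all tested genes, or 4.57% in either direction. The groups were apart for 5 members higher and 2 lower, beside 3.79% and 3.86%. Among the 23 members that averaged at least 0.5 TPM in Huh-7, they were apart for 2 higher and 0 lower. CENPS, apart higher, and CENPN, apart lower, were at 0.31 TPM or less in every Huh-7 library. The median change was 0.09 over the members and 0.01 over all tested genes, and 19 members (beside 52.3% of all tested genes) had a positive change. CENPH, at the levels given above, changed by 0.54 (SE 0.15, limma adjusted p = 0.828). OIP5 changed by 1.0 (SE 0.283, limma adjusted p = 0.828). CENPM changed by 0.38 (SE 0.112, adjusted p = 0.831) and KNTC1 by 0.68 (SE 0.225, adjusted p = 0.955), and CENPT by -0.33 (SE 0.12, adjusted p = 0.994), all limma. In all 5, no si-CENPU library overlapped the si-NC libraries. Of these 5, OIP5 alone exceeded 1.5 TPM in Huh-7.

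CENPW gave a change of 4.15 (SE 1.76, limma adjusted p = 1.0) that ran from 1.35 to 6.15 as each library was left out. MIS12 gave 1.3 (SE 2.08, limma adjusted p = 1.0), and its direction rested on the library with the listed 0. Without Huh-7 si-NC replicate 3 it was -2.14 and called (limma adjusted p = 0.00188, range over 24 alternatives 0.00188 to 1.0). The 3 si-CENPU libraries, at 247.6 to 336.82 TPM, then stood against 1306.21 and 1214.21 TPM with si-NC. The other checkpoint and KMN members had no unadjusted p below 0.05, and their changes lay between -0.17 for MAD2L1 and 0.46 for NUF2.

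**Figure D5:**
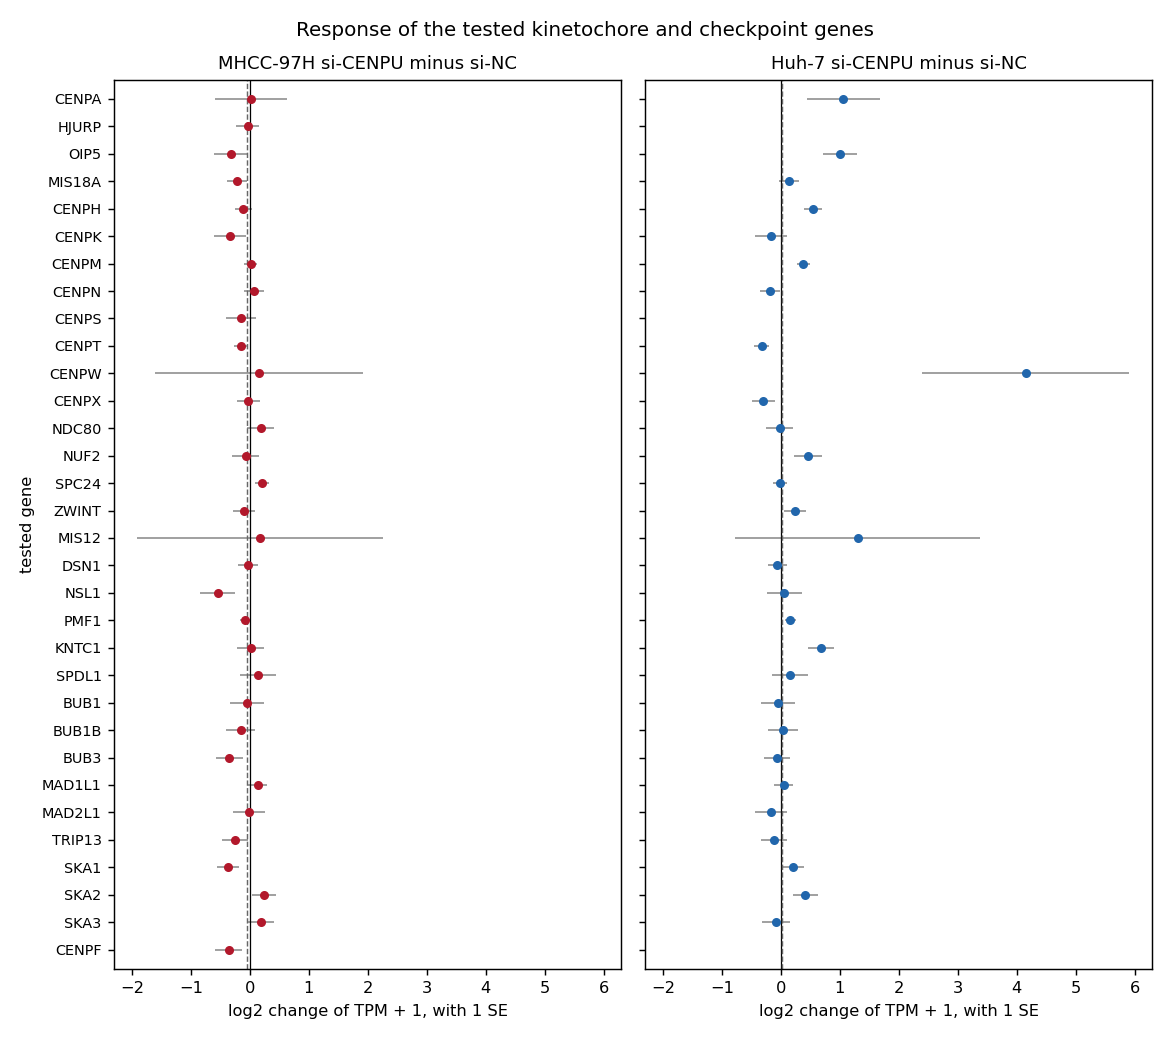
Log2 change of TPM + 1, si-CENPU minus si-NC, with 1 SE, of the tested genes in MHCC-97H (left) and Huh-7 (right). The dashed line is the median of all tested genes, -0.05 in MHCC-97H and 0.01 in Huh-7. HJURP, CENPS and CENPF are not drawn for Huh-7, where their si-NC libraries were all at 0, and the error bars of CENPW and MIS12 are the longest.

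The difference of responses, MHCC-97H minus Huh-7, was called for 0 members, beside 0.00902% of all tested genes. At an unadjusted p below 0.05 there were 3 members, beside 3.45% of all tested genes, and all 3 were negative, beside 2.07%. OIP5 differed by -1.32 (SE 0.4), CENPH by -0.65 (SE 0.212) and CENPM by -0.37 (SE 0.158), each with limma adjusted p = 0.999. The next in order were SKA1 at -0.58 (SE 0.266), KNTC1 at -0.67 (SE 0.318) and PMF1 at -0.24 (SE 0.123), also with limma adjusted p = 0.999. No response of a member was therefore shown to differ between the lines in the fit of all libraries. Without Huh-7 si-NC replicate 3, MIS12 was called at 2.3, where all libraries gave -1.13 (limma adjusted p = 0.0147, range over 23 alternatives 0.0147 to 1.0).

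Related genes outside the list were not called after si-CENPU either. Of the CENP-O complex with PLK1, the passenger complex, other centromere proteins, the checkpoint targets and anaphase genes, and 10 proliferation genes, limma called 0 in either line, out of 3, 7, 6, 20 and 10 tested. Their median changes were 0.06, -0.06, -0.11, -0.09 and -0.08 in MHCC-97H, and -0.22, -0.07, -0.04, 0.16 and 0.02 in Huh-7. At an unadjusted p below 0.05 there was 1 such gene over both lines, MAD2L1BP, the p31comet partner of MAD2, at 0.44 in Huh-7 (SE 0.159, limma adjusted p = 0.982). Between the lines with si-NC, 3, 6, 4, 14 and 10 of these genes were called higher in MHCC-97H and 0, 0, 0, 1 and 0 lower, ANAPC11 being the lower gene at -0.7, beside 50.1% and 22.9% of all tested genes. Of these genes, PLK1, ITGB3BP, BIRC5, SPAG5, RSF1, CDC27, PCNA, CDK1 and MCM2 averaged under 1 TPM in Huh-7. They passed the expression limit through MHCC-97H alone, so these counts describe the listing and support nothing further. After trimmed-mean scaling 2, 3, 2, 7 and 9 were called higher and 0, 0, 1, 1 and 0 lower, beside 3560 and 4017 of 11003 tested genes.

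Counting could affect some members. The strand setting is not given in the sources used here, and 13 of the 40 members overlap another gene of at least 1 TPM, 10 of them on the opposite strand. ZWILCH overlaps RPL4, a ribosomal protein gene at 536, 635, 173 and 194 TPM on average in MHCC-97H si-CENPU, MHCC-97H si-NC, Huh-7 si-CENPU and Huh-7 si-NC. On the opposite strand, CENPN overlaps CMC2, at 61, 62.1, 32.9 and 26.5 TPM in the same order of groups. Likewise CENPT overlaps NUTF2, at 80.1, 86.3, 77.8 and 68.5 TPM. CENPX overlaps LRRC45 and MIS12 overlaps DERL2, also on the opposite strand, both at group means of 15.3 TPM or less. For 7 members, CENPC, CENPI, CENPN, BUB1, BUB3, MAD2L1 and SKA2, the gene name table holds a pseudogene of the same name, so their levels are uncertain to the extent that reads were shared.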

How the data were processed

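RNA sequencing libraries of 12 samples were analysed, grouped by the cell line and small interfering RNA in their titles. The values are TPM deposited by the authors, 1 column per sample; HISAT2 and StringTie on GRCh38.p13 were used per the submitters' processing notes, without versions. The annotation release was not given in the sources used here, nor was the strand setting. TPM columns summed to between 998416 and 999065, so depth is unknown and no counting interval is given. Symbols were matched for 60447 of 60664 identifiers, and GENCODE release 29 gave coordinates and the GC content of transcripts.

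The members and lists were chosen with earlier results of these data known. TPM was transformed to log2(TPM + 1). Genes with a mean of at least 1 TPM (11088) were fitted in limma 3.58.1 (R 4.3.3) with 1 mean per group, moderated variances with a trend and two-sided p-values, Benjamini-Hochberg adjusted over all tested genes within each contrast. The fit was tested on simulated data. CENPU was tested by exact permutation. Members were given full values if they were called (between lines, the 10 smallest adjusted p), among the 6 smallest p of a response contrast, held a library more than 10 TPM and 3 times from its group median, or were the highest or lowest of their role. Other members named beside them were chosen after their values were seen. Alternatives were no filter, a mean of at least 5 TPM, other pseudocounts (0.1, 0.5), trimmed-mean and quantile scaling, each contrast's samples alone, the replicate number as a block, other moderation and leaving out each of the 12 libraries. A filter within each line and a GC correction were chosen after seeing the data. Figures used matplotlib 3.10.9.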

Additional observations from a re-analysis of the deposited data

How the results depend on the processing

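The log2 changes of CENPU and of the members chosen by the rule for full values, each in the contrast that chose it, kept their direction under all alternatives except for 3 results that reversed when 1 library was left out. CENPW in MHCC-97H ran from -0.14 to 0.3 as each library was left out, with -0.14 without MHCC-97H si-NC replicate 3. MIS12 ran from -2.14 to 3.04 in Huh-7 and from -2.87 to 2.3 for the difference of responses, with -2.14 and 2.3 without Huh-7 si-NC replicate 3. Leaving out each library in turn, 0 members were called in MHCC-97H and 0 to 1 in Huh-7. For the difference of responses 0 to 1 were called, and between the lines 26 to 31. Over all genes the counts in that order were 0 to 4, 0 to 4, 0 to 4 and 7380 to 8221. The members called between the lines were 30 of 32 tested in the fit of all libraries. They were 15 of 16 with a mean of at least 5 TPM and 17 of 19 with a mean of at least 1 TPM in each line. Of the 32, 13 had passed the expression limit through MHCC-97H alone. Over all genes, calls after si-CENPU were 1 in each line, and ran from 0 to 7 in MHCC-97H, from 0 to 11 in Huh-7 and from 0 to 6 for the difference of responses over the alternatives. Between the lines, 8099 of 11088 tested genes were called in the fit of all libraries. With a mean of at least 5 TPM it was 4405 of 5615, and with at least 1 TPM in each line 5258 of 8005.

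The replicate number as a block gave 0 members called in each line, 0 for the difference of responses and 30 between the lines. Over all 11088 tested genes, 0 were called in MHCC-97H, 1 in Huh-7, 0 for the difference of responses and 7940 between the lines. Deviations of same-numbered samples of different groups had correlations of -0.121 to 0.134, and a differently numbered pair reached 0.157. No pairing by number was thus seen in them. Deviations from means of 3 libraries cannot exclude that samples were paired by culture or batch. What depth limits cannot be given from TPM. Many members were listed at 0 or under 1 TPM in Huh-7.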
